A study of Rattus norvegicus with 6 samples.

Results

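The cluster of miR-143 and miR-145 was followed in exosomes, the small vesicles that cells release, from rat mesenchymal stem cells (MSCs). The 3 members are miR-143-3p, miR-145-5p and miR-145-3p, taken by their exact names from the 763 mature miRNAs listed in the deposited table. All the cells carry the label RBMSC and the wild-type genotype, and no genetic change separates the groups. The untreated group has 3 libraries from cells with no pretreatment. The nicorandil group has 3 libraries from cells given 200 µM nicorandil, a drug for angina that acts as a nitrate and as an opener of ATP-sensitive potassium channels, for 24 h before the conditioned medium was collected. Small RNA of 3 exosome isolates a group was sequenced. The labels do not say whether these came from separate cultures, so the p-values reflect only the spread among these samples, and that spread may be technical.

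miR-143 and miR-145 are cut from hairpins that are made together as 1 long primary transcript, and Drosha and Dicer then release from each hairpin a 5p and a 3p strand. The cluster is driven by serum response factor with myocardin and is best known for keeping smooth muscle cells in their contractile state; it is also abundant in other mesenchymal cells such as fibroblasts and MSCs. For miR-145 the 5p strand is usually the one loaded into Argonaute in tissues, and for miR-143 it is the 3p strand.

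The sequences are shown because 1 transcript, 2 hairpins and 4 strands have to be told apart before their reads are compared. They are from RefSeq on the rat build GRCr8; the sources used here do not name the build that the authors aligned to. The hairpins lie on the minus strand, at chr18:57371349-57371453 for Mir143 and chr18:57369983-57370070 for Mir145, with 1278 bases between them, so Mir143 comes first in the direction of transcription. In the same annotation both lie within the span of Carmn, a long non-coding RNA gene known as a host gene of the cluster. In the hairpins the capitals mark the annotated mature strands, the 5p strand first.
Mir143 hairpin: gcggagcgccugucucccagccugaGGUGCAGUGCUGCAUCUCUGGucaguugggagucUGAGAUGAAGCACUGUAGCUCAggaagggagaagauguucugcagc
Mir145 hairpin: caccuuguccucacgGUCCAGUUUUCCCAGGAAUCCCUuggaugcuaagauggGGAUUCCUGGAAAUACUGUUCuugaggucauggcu

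In the mature strands the capitals mark the seed, bases 2 to 8, which is the part that pairs with target mRNAs.
miR-143-3p: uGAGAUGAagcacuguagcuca
miR-145-5p: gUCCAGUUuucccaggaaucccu
miR-145-3p: gGAUUCCUggaaauacuguuc
miR-143-5p: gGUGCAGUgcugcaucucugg
The 3 members have 3 different seeds, and no other rat mature miRNA in the RefSeq table shares any of them. Reads of these strands therefore have no seed relative in that table with which they could be confused. The strands are 22, 23 and 21 bases long, so a read count needs no correction for length when they are compared. miR-143-3p begins with U, as do 36.2% of the 686 listed miRNAs that matched the RefSeq table. Those miRNAs with a first U took 83.7% of the reads of matched miRNAs, and 77.2% when miR-143-3p was left out. Both strands of miR-145 begin with G, like 12.7% of the matched miRNAs, which together took 0.911% of the reads. Of the 4-base sequences GGAG and CCCU, both described as common in exosomal miRNAs and searched on the RNA strand itself, miR-145-5p holds CCCU as its last 4 bases and the other members hold neither. CCCU occurs in 9.33% of the matched miRNAs and in 8.85% of those with a read, GGAG in 8.16% and 11.5%. Folded with RNAfold, the Mir143 hairpin had a minimum free energy of -63.5 kcal/mol and the Mir145 hairpin -39.9 kcal/mol. The annotated strands shared 16 base pairs in Mir143 and 17 in Mir145.

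The libraries were shallow. The table holds a normalized read-count signal from which whole reads could be recovered, 2212 to 2338 miRNA reads in the untreated and 8426 to 16628 in the nicorandil libraries. Depth thus differed 6.11-fold in the direction of the treatment, with 6774 reads in the untreated and 41378 in the nicorandil group, and depth and treatment cannot be told apart. Of the 763 miRNAs, 250 had a read. Values are given below both as the deposited normalized reads and as shares of all miRNA reads of a library, with 95% Clopper-Pearson intervals. The reads carry no molecular identifiers, and copies made by PCR are not independent, so intervals and limits cover counting error only. The nicorandil libraries differed from each other by more than counting error, so intervals for that group together may be too narrow. Less of a miRNA per exosome and fewer exosomes that carry it cannot be told apart in these bulk libraries.

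miR-143-3p, the main strand of the cluster, was the most abundant miRNA in each of the 6 libraries. It stood at 954, 1108 and 1089 normalized reads in the untreated libraries and at 1600, 1663 and 1359 in the nicorandil libraries. Every nicorandil library lay above every untreated one, and nicorandil replicate 3 was the lowest of its group. The means were 1050 ± 84.1 and 1541 ± 160 (SD, n = 3), a log2 fold change of 0.55 (SE 0.11, 95% interval 0.32 to 0.78, limma adjusted p = 0.00182). Of the 121 miRNAs tested, 26 (21.5%) passed the threshold of a Benjamini-Hochberg adjusted p of 0.05, 14.0% upward and 7.44% downward. Groups did not overlap for 28.1% of the tested miRNAs, and for 17.4% with nicorandil above.

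The rise of miR-143-3p in normalized reads was not matched in its share of the reads. That share was 22.2%, 23.1% and 22.3% in the untreated libraries and 25.7%, 25.7% and 20.9% in the nicorandil libraries. Nicorandil replicates 1 and 2 lay above all untreated libraries and nicorandil replicate 3 below all of them. The group means were 22.5% ± 0.52 and 24.1% ± 2.74 (SD, n = 3), a difference smaller than the spread of the nicorandil libraries (exact permutation test, two-sided p = 0.4, adjusted p = 0.4 over the 2 shares tested, smallest possible 0.1). With library totals as the scale, the log2 fold change was 0.090 (limma adjusted p = 0.615), and with median-of-ratios scaling 0.32 (adjusted p = 0.0781); in both cases miR-143-3p was no longer called. The same scalings moved the median log2 fold change of the 121 tested miRNAs from 0.23 to -0.12 and to 0.11. Relative to these medians miR-143-3p lay higher by 0.32 as deposited, by 0.21 with library totals and by 0.21 with the median of ratios. Without nicorandil replicate 2 the call was also lost, at a log2 fold change of 0.49 (limma adjusted p = 0.0602).

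miR-148a-3p, the miRNA next in rank, came closer to miR-143-3p in the nicorandil libraries. For each read of miR-148a-3p there were 2.25, 2.47 and 2.12 reads of miR-143-3p in the untreated libraries and 1.69, 1.62 and 1.34 in the nicorandil libraries. This ratio of reads does not depend on the scale, and the groups did not overlap. The difference in this ratio was not tested. miR-148a-3p was itself called higher, at a log2 fold change of 1.11 (limma adjusted p = 2.65e-06). With library totals it lay at 0.65 (limma adjusted p = 0.000654).

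**Figure D1:**
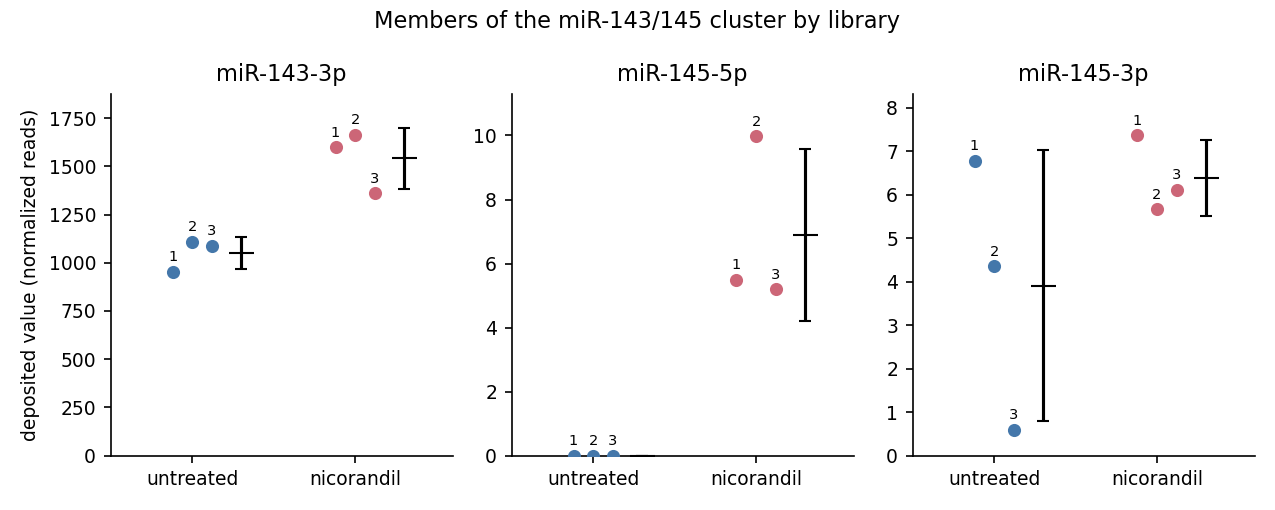
Deposited normalized reads (linear axes from 0, a different range in each panel) of the 3 members in each library, numbered by replicate, with the mean and SD of each group (n = 3) as bars. miR-143-3p lies between 954 and 1663, the strands of miR-145 at 9.97 or below, and miR-145-5p is at 0 in all untreated libraries.

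miR-145-5p, the strand known for repressing KLF4 and KLF5 in smooth muscle, had no read in any untreated library. The nicorandil libraries held 16, 23 and 7 reads of it, or 5.49, 9.97 and 5.20 normalized reads. Nicorandil replicate 2 was highest, and all 3 stood above the untreated libraries. Their mean was 6.89 ± 2.67 (SD, n = 3), rank 65 among the 243 miRNAs above 0 in that group. limma gave a log2 fold change of 2.93 on the log2(value + 1) scale (SE 0.63, adjusted p = 0.00316), whose size depends on the added 1 because the untreated group is at 0. The miRNA entered the test only through its nicorandil values, since miRNAs were kept on their mean over all 6 libraries.

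The depth limits what this absence shows. With 0 reads, a single untreated library allows a share of up to 0.158% to 0.167%, the upper end of its 95% Clopper-Pearson interval. That is above all 3 nicorandil shares of 0.0962%, 0.141% and 0.0831%. A single untreated library could therefore not show a difference from any nicorandil library. Over the group, 0 of 6774 reads allow a share of up to 0.0544%. The nicorandil group had 46 of 41378 reads, 0.111% (95% interval 0.0814% to 0.148%). At the nicorandil share 7.53 reads would have fallen among the 6774 untreated reads. Set against a floor of 3 reads for the whole untreated group, miR-145-5p was 2.51-fold higher by share of the reads. On the TMM scale of the deposited values it was 3.45-fold higher. That floor, a share of 0.0443%, lies below the limit of 0.0544%, at which the folds would be smaller. Both folds leave out the counting error of the 46 reads. The call was kept in each of the 6 fits with a library left out. Leaving out an untreated library could not change the log2 fold change of 2.93, since all untreated libraries were at 0. The kept call in those fits therefore says little. With library totals the call was also kept (log2 fold change 2.76, limma adjusted p = 0.0136), but not in DESeq2 (3.95, adjusted p = 0.0641).

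miR-145-3p, the strand opposite on the same hairpin and the lesser known of the pair, was present in both groups. The untreated libraries held 4, 2 and 0 reads, and the nicorandil libraries 19, 15 and 8. As normalized reads these were 6.78, 4.35 and 0.59 against 7.37, 5.67 and 6.11; the value of 0.59 stands for a library with no read, an effect of the authors' adjustment. Untreated replicate 1 lay above 2 of the nicorandil libraries, so the groups overlapped. The means were 3.91 ± 3.12 and 6.38 ± 0.88 (SD, n = 3), and the log2 fold change of 0.86 (95% interval -0.43 to 2.15) did not pass (limma adjusted p = 0.426). Without untreated replicate 3 it was 0.19 (adjusted p = 0.892). By share of the reads the groups were at 0.0886% (95% interval 0.0325% to 0.193%) and 0.102% (0.0732% to 0.137%), and these intervals overlap. At the nicorandil share 6.88 untreated reads would have been found, against the 6 counted.

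**Figure D2:**
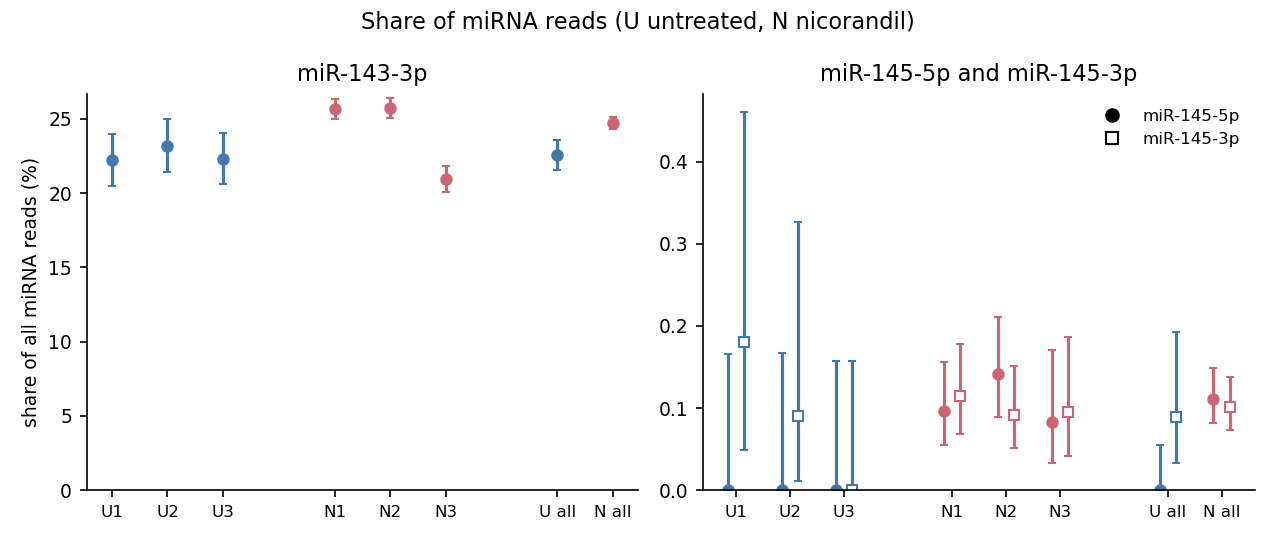
Share of all miRNA reads in percent (linear axes from 0) for miR-143-3p on the left and for both strands of miR-145 on the right, per library and for each group together, with 95% Clopper-Pearson intervals as bars. In the right panel the strands overlap in the nicorandil libraries near 0.1%, while among untreated libraries only the 3p strand has reads.

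The strands of miR-145 were recovered in nearly equal numbers after nicorandil. The 5p strand made up 45.7%, 60.5% and 46.7% of the miR-145 reads in the 3 nicorandil libraries, a mean of 51.0% ± 8.29 (SD, n = 3). Over the group it was 46 of 88 reads, or 52.3% (95% interval 41.4% to 63.0%), a range that includes an even split. In the untreated libraries it was 0 of 4 and 0 of 2 reads, and untreated replicate 3 had no miR-145 read. Those 0 of 6 reads allow a 5p share of up to 45.9% (Clopper-Pearson). This limit lies below the nicorandil share of 52.3% but above the lower end of its interval, and it rests on 6 reads from 2 libraries. The difference in the arm ratio was not tested over libraries, since untreated replicate 3 has no arm ratio.

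Few other hairpins were split as evenly. There were 65 hairpins with both strands listed and at least 20 reads, and the rarer strand took a median of 0.0903% of a hairpin's nicorandil reads. It took under 5% in 49 of them and at least 20% in 5. Among the 65, miR-145 had the highest share of the rarer strand, 47.7%. miR-361 followed at 38.7%, and its 5p interval of 21.9% to 57.8% overlaps that of miR-145. Hairpins with numbered strand names were left out, and among these miR-125b also had many reads on both sides. miR-125b-5p had 483 nicorandil and 56 untreated reads, miR-125b-1-3p 325 and 66, and miR-125b-2-3p 6 and 2. miR-125b-5p can come from more than 1 hairpin. Among the most abundant hairpins, miR-423, known for yielding both strands, had 81.3% of its reads on the 5p strand, miR-148a 0.0155% and miR-320 none. miR-143 was read from its 3p strand alone: the 5p strand had 0 of 10227 nicorandil reads and 0 of 1527 untreated reads. For miR-143-5p, 0 of 41378 reads allow a share of up to 0.00891% of all nicorandil miRNA reads (Clopper-Pearson).

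**Figure D3:**
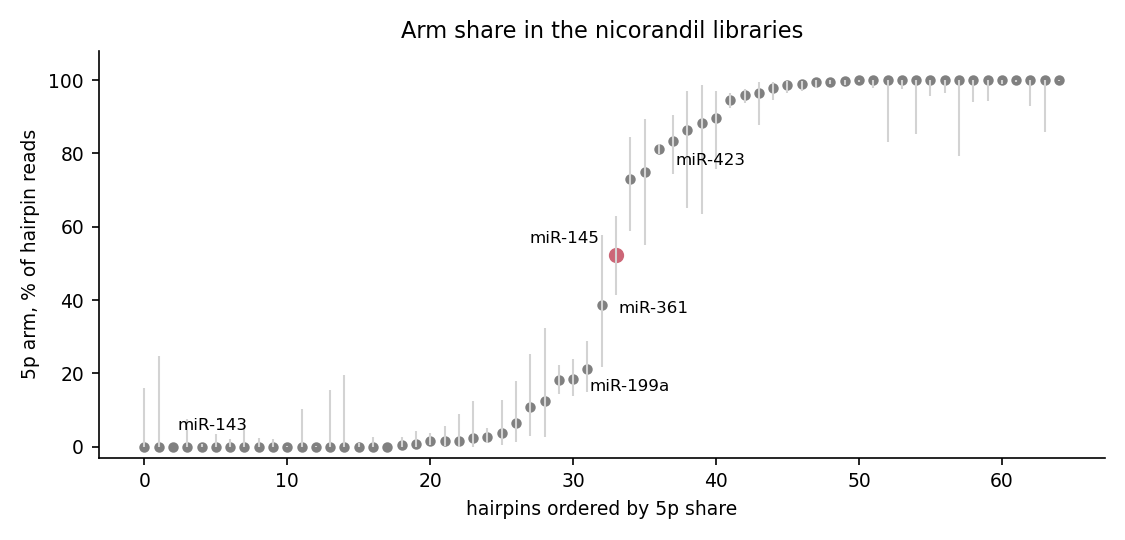
Percentage of the reads of a hairpin on its 5p strand in the nicorandil libraries together, for 65 hairpins ordered by that percentage, with 95% Clopper-Pearson intervals as grey bars. Most hairpins lie near 0 or 100%, and miR-145 (large point, 52.3%) lies between them.

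Although both hairpins come from 1 transcript, reads of miR-143 far outnumbered those of miR-145. For each miR-145 read, both strands counted, there were 122, 110 and 118 reads of miR-143-3p in the nicorandil libraries. The untreated libraries gave 124 and 256, and the third had 521 reads of miR-143-3p and none of miR-145. As a share of the reads of the cluster, miR-145 made up 0.803%, 0.389% and 0% in untreated and 0.814%, 0.897% and 0.843% in nicorandil libraries. These shares were free of any scaling. The groups did not overlap, but untreated replicate 1 lay just under nicorandil replicate 1, and their intervals of 0.219% to 2.04% and 0.567% to 1.13% overlap. The means were 0.397% ± 0.40 and 0.851% ± 0.043 (SD, n = 3; two-sided exact permutation p = 0.1, the smallest that 3 against 3 libraries allow, and 0.2 adjusted over the 2 shares). Over the groups, 6 of 1533 reads gave 0.391% (0.144% to 0.85%) and 88 of 10315 gave 0.853% (0.685% to 1.05%). The difference lay on the 5p strand: the 3p strand alone took 0.391% and 0.407% of the reads of the cluster, the 5p strand 0% and 0.446%.

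Other miRNA clusters were set beside it by the ratio of their most to their least abundant hairpin, as a description with no test. That ratio was 116 in the nicorandil and 254.5 in the untreated libraries for miR-143 and miR-145. Of 9 other clusters, only that of miR-30d and miR-30b had a ratio of the same order, at 253 and 100, which rests on 3 and 1 reads of miR-30b. For the cluster of miR-23a, miR-27a and miR-24 it was 17.0 and 36.2, and for miR-99b, let-7e and miR-125a 31.1 and 18.3. For miR-199a and miR-214, another mesenchymal cluster, it was 1.40 and 1.0, and for miR-221 and miR-222 1.30 and 1.5. miR-24, let-7a, miR-125b, miR-194, miR-199a and let-7c can also come from hairpins elsewhere in the genome, so their reads need not belong to these clusters. Adapter ligation can favour some sequences over others, and its part in ratios between miRNAs was not tested.

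**Figure D4:**
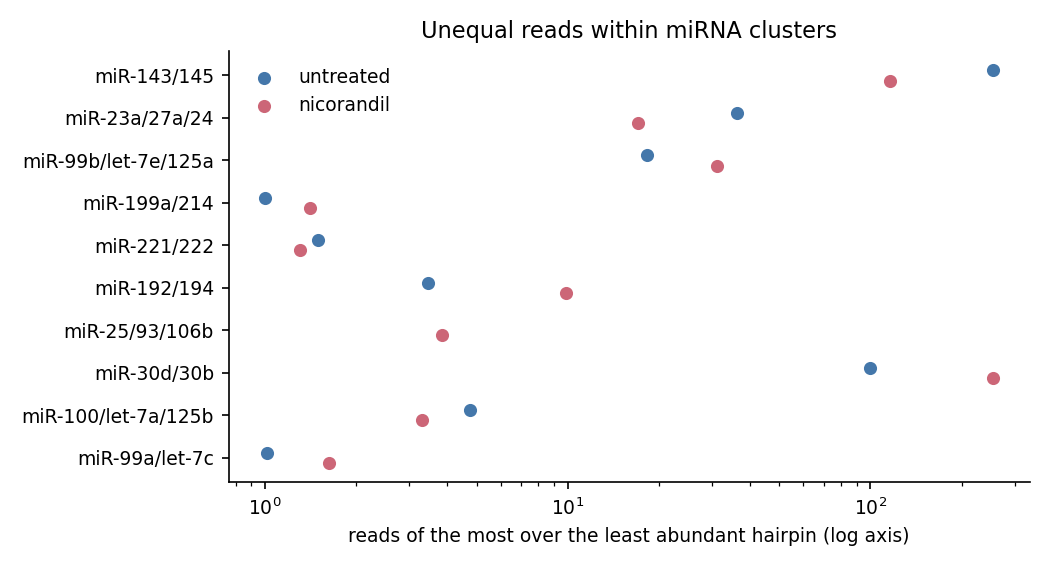
Reads of the most abundant hairpin divided by those of the least abundant hairpin in 10 clusters (log axis), for the untreated and the nicorandil libraries together. The clusters of miR-143 with miR-145 and of miR-30d with miR-30b stand at or above 100 in both groups; the untreated point of the cluster of miR-25 is missing because miR-93 had no read there.

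Over the 6 libraries the members correlated unevenly. On the log2(value + 1) scale, miR-143-3p and miR-145-5p had a Pearson correlation of 0.95, miR-143-3p and miR-145-3p of 0.37, and both strands of miR-145 of 0.50 (n = 6 libraries, which share the difference in depth between the groups). Of the other 120 tested miRNAs, miR-93-5p (0.96), miR-27a-3p (0.96) and miR-145-5p were most like miR-143-3p. Those most like miR-145-5p were miR-93-5p (0.99), which also had no untreated read, miR-99a-5p (0.99) and miR-148a-3p (0.98). miR-145-3p was most like miR-142-5p (0.87), miR-100-5p (0.83) and miR-361-3p (0.81). These correlations are descriptions of 2 groups of 3 libraries and carry no test. miRNAs that are higher in the same group correlate over both groups, so the high values largely restate the group difference.

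Most of the other miRNAs linked to smooth muscle that could be tested were not called. Of 12 on the list, 10 had a read and 7 could be tested: 1 rose, 1 fell and 5 missed the threshold. Among all tested miRNAs 21.5% were called, 14.0% higher and 7.44% lower, so these counts are near the background. Their median log2 fold change was 0.45 beside 0.23 for all tested miRNAs. The summed share of the list was 9.90% to 13.0% of untreated and 8.89% to 9.26% of nicorandil reads, with no overlap between the groups. This share is weighted by abundance and set against library totals, so it is not the same measure as the median. miR-21-5p, which favours smooth muscle growth, rose by 0.63 (limma adjusted p = 0.00937), but lay at 0.17 (adjusted p = 0.528) with library totals as the scale. miR-10a-5p, linked to smooth muscle differentiation, fell by 3.24 on the log2 scale (limma adjusted p = 1.7e-05) and by 3.57 with library totals. miR-24-3p, the most abundant of the list, was at 0.030, miR-26a-5p at 0.089 and miR-146a-5p at 0.45. With library totals miR-24-3p was called lower, at -0.43 (limma adjusted p = 0.02). With the median of ratios it was at -0.20 (limma adjusted p = 0.39). miR-26a-5p was at -0.35 and miR-146a-5p at 0.12 with library totals, neither of them called.

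Of 11 miRNAs linked to mesenchymal cells, the members aside, 10 could be tested. Here 2 rose, miR-21-5p and miR-100-5p (log2 fold change 1.02, limma adjusted p = 0.0149), none fell and 8 missed the threshold, beside 14.0% called higher among all tested miRNAs, so this count is near the background. Their median was 0.68. miR-100-5p lay at 0.61 with library totals (limma adjusted p = 0.326). The summed share of the list overlapped between the groups, at 6.46% to 6.83% of untreated and 6.43% to 7.40% of nicorandil reads. miR-125b-5p, miR-22-3p and miR-140-3p, the most abundant after miR-21-5p, were at 0.74, 0.070 and 0.33. Markers of striated muscle, which shares several miRNAs with smooth muscle, were nearly absent: miR-1-3p, miR-133b-3p, miR-206-3p, miR-208a-3p and miR-208b-3p had no read, miR-133a-3p had 2 and miR-499-5p had 1, all in nicorandil libraries.

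Markers of 4 other kinds of cell took lower shares of the nicorandil reads, and neuronal markers overlapped between the groups. Among all tested miRNAs 7.44% were called lower. The liver and gut markers took 1.44% to 2.61% of untreated and 0.463% to 0.617% of nicorandil reads, and 3 of 3 tested members were lower. Endothelial markers took 0.181% to 0.36% and 0.0301% to 0.0356%, with miR-126a-5p at 0 reads and the 1 tested member lower. That member, miR-126a-3p, rests on few reads, 19 untreated and 13 nicorandil. Epithelial markers took 0.181% to 0.385% and 0.0237% to 0.0301%, with 1 of 2 tested lower. The lower one, miR-200b-3p, had 11 untreated and 4 nicorandil reads. Blood markers took 0.678% to 0.854% and 0.263% to 0.415%, with 1 of 3 lower. Neuronal markers took 2.14% to 2.98% and 2.01% to 2.56%, with 0 of 2 tested members called and with miR-124-3p and miR-9a-5p at 0 reads. The part of these markers in the values of the cluster was not tested.

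The authors' deposited table gives log2 fold changes of 0.55 for miR-143-3p, 6.24 for miR-145-5p and 0.64 for miR-145-3p, with unadjusted p-values of 1.65e-05, 7.67e-05 and 0.33. The size for miR-145-5p in the authors' deposited table is set against a group at 0 and so depends on how that 0 was handled. limma on log2(value + 1) gave 2.93, edgeR's quasi-likelihood test 6.23 and DESeq2 3.95. The direction was upward in each of them, which was fixed in advance because every untreated library was at 0.

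**Figure D5:**
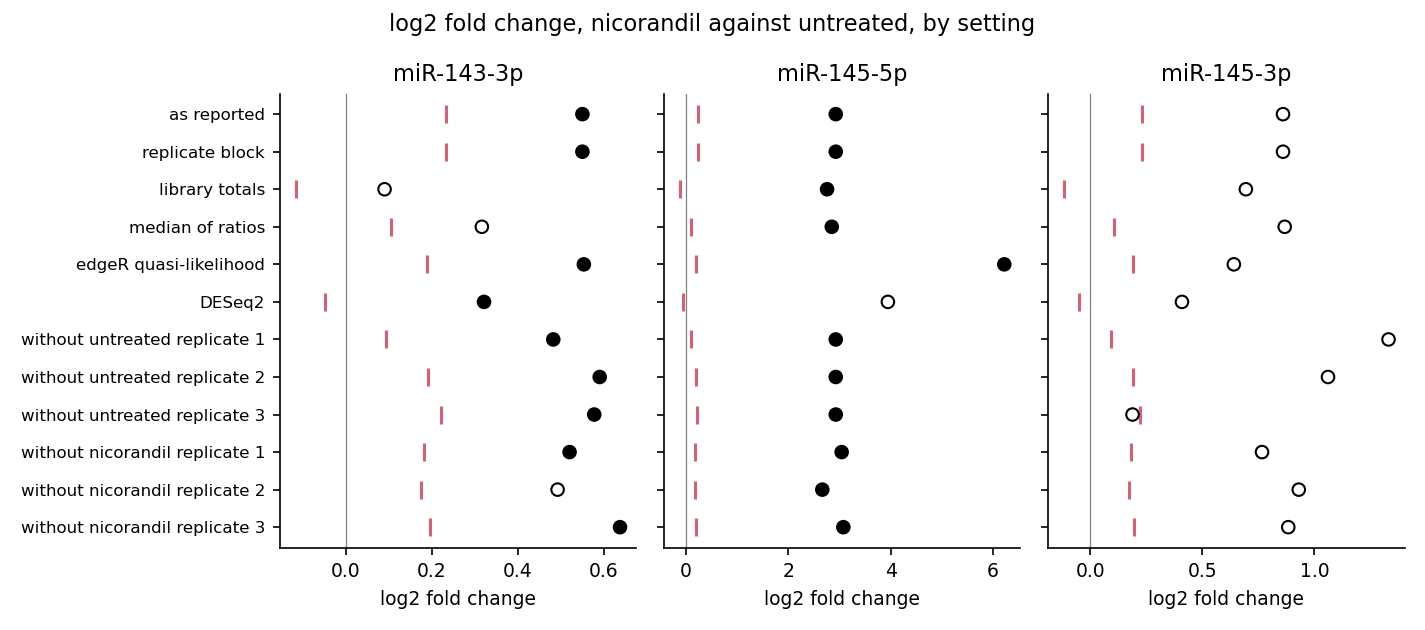
log2 fold change of each member, nicorandil against untreated, as reported and under 11 other settings (x axes differ in range); filled points passed an adjusted p of 0.05, open points did not, and red ticks mark the median of all tested miRNAs in that setting. miR-143-3p is open with library totals, with the median of ratios and without nicorandil replicate 2, miR-145-5p is open in DESeq2, and miR-145-3p is open throughout.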

How the data were processed

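The deposited table gives 1 signal value per library and miRNA; per the file headers it also holds the authors' log2 fold change and p-value. The submitters' processing notes name Bowtie, edgeR and FastQC; no version, build or annotation is stated in the sources used here. By their form the deposited values are edgeR pseudo-counts, that is reads mapped within each group to 1 common library size (dispersion 0.0272). Inverting this gave whole reads for 100% of 763 miRNAs (tolerance 0.001 reads), and edgeR on those reads returned the deposited signal to within 4.8e-07. A placeholder near 0 was read as 0.

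limma 3.58.1 (R 4.3.3) with an intensity trend was fitted, after adding 1 and taking log2, to the 121 miRNAs whose mean was at least 1, without covariates, and p-values were adjusted over all 121. The script was tested on simulated data. Alternatives used edgeR 4.0.16 and DESeq2 1.42.0 on the recovered reads. A chi-square test of the reads found no difference between untreated replicates 1 and 2 (p = 0.735) or 1 and 3 (p = 0.154) and a difference between 2 and 3 (p = 0.0145). All 3 untreated libraries were kept, and untreated replicates 1 and 2 were averaged as an alternative. In the same chi-square test every pair of nicorandil libraries differed. The statistic was 234.5 for nicorandil replicates 1 and 2 (98 degrees of freedom) and 496.8 for 1 and 3 (96). For nicorandil replicates 2 and 3 it was 502.6 (93 degrees of freedom). The nicorandil libraries thus varied by more than counting error.

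Named miRNAs were the members, miR-143-5p, the 3 miRNAs most correlated with each member, and abundant members of fixed lists and clusters. miR-148a-3p, miR-361, miR-10a-5p, miR-100-5p and the 3p strands of miR-125b were added after their values were seen. The members and lists were chosen with earlier results of these data known.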

Additional observations from a re-analysis of the deposited data

How the results depend on the processing

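Averaging untreated replicates 1 and 2, and filterByExpr before the quasi-likelihood test, were chosen after seeing the data. As reported, 26 miRNAs were called (17 higher, 9 lower), against 15 with library totals (4 and 11), 16 with the median of ratios (7 and 9) and 14 with DESeq2 (5 and 9, with 9 adjusted p-values not given), and 11 to 21 with 1 library left out, lowest without nicorandil replicate 2. miR-143-3p was called in 9 of 11 other settings on all libraries, with log2 fold changes of 0.090 (library totals) to 0.55. Most of these settings keep the TMM scale of the deposited values. Its factors were 1.12 to 1.27 in untreated and 0.84 to 0.875 in nicorandil libraries. Among settings with another scale, 0.090 and 0.32 (median of ratios) did not pass, while DESeq2 did (0.32, adjusted p = 0.0128). With a library left out miR-143-3p ranged from 0.48 to 0.64. miR-145-5p was called in 8 of 9, the exception being DESeq2 at 3.95. Its log2 fold change ranged from 2.67 to 3.08 with a nicorandil library left out. Leaving out an untreated library could not move it, since all untreated libraries were at 0. A minimum mean of 5 and filterByExpr removed miR-145-5p. miR-145-3p was called in 0 of 10 and 0 of 6. The shares kept their direction: the difference in miR-143-3p was 0.751 to 3.14 percentage points and that in miR-145 0.255 to 0.657 with a library left out, and the 5p share in nicorandil libraries 46.2% to 53.6%. The cause of each lost call was not tested. Deviations of libraries with the same replicate number correlated at 0.0088, 0.044 and -0.03, so no pairing by number was seen. Libraries this shallow cannot show that there was none. With the replicate block 26 miRNAs were called. miR-143-3p (0.55, limma adjusted p = 0.0134), miR-145-5p (2.93, 0.00876) and miR-145-3p (0.86, 0.384) kept their side of the threshold. Not every library correlated best with its own number. The 6774 untreated reads limit what can be said of miR-145.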
